A study of Mus musculus with 2 samples.

Results

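Genes that fasting or the nuclear receptor PPAR-alpha is known to control in heart and liver were followed through 2 heart libraries: Pdk4, Ucp3, Gm15441, Txnip, Angptl4, Acot1, Acot2, Cpt1a and Ppara itself. They are 9 of 25004 genes in the tables and were found by symbol, as 11 RefSeq transcript accessions whose counts were added up per gene. They were chosen by measured values of the same comparison, in which Pdk4, Ucp3 and Gm15441 had already stood out, so the differences given for them are a description and carry no test. Both libraries were made from the hearts of FvB/N mice aged 12 weeks, with 3 hearts combined in each. The non-transgenic library came from control mice. The transgenic library came from mice labelled cMyBP-C delta C0-C1f transgenic, that is, carrying cardiac myosin binding protein-C (a thick-filament protein of heart muscle) without its C0-C1f region. The sources used here give neither the promoter of the transgene nor the number of founder lines, nor the state of the endogenous gene. With 1 library per group there is no replicate check, no p-value was computed, and every interval covers counting error only.

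PPAR-alpha is a receptor for fatty acids. It binds DNA with the retinoid receptor RXR at pairs of AGGTCA half-sites, and in the fasted heart it switches on genes that burn fat. Its targets include enzymes that bring fatty acids into mitochondria, enzymes that release them from coenzyme A, and PDK4, a kinase that shuts off pyruvate dehydrogenase and so spares glucose. Gm15441 is a non-coding RNA gene on the strand opposite Txnip, which encodes a thioredoxin-binding arrestin that limits glucose uptake.

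The control library held 170543 counts and the transgenic library 190824. At that depth 1 count is 5.86 and 5.24 CPM (the count scaled to a fixed library total), and the floor of 3 counts used for a gene at 0 is 17.6 and 15.7 CPM. That floor is a one-sided limit, and the exact Poisson interval of a 0, which limits both sides, reaches 3.69 counts. Heart muscle markers were present, with 783 and 1374 counts for Tnni3 (cardiac troponin I) and 2405 and 3916 for Myl2 (ventricular myosin light chain). Other defining genes of the tissue were missing: Tnnt2 and Myl3 had no count, Myh6 had 0 and 1, Mb had 1 and 0, and Pln had 2 and 1. Genes that every heart uses can thus stand at 0 in these tables, and a 0 is not a sign of silence.

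Strand and accession number bear on the 9 genes directly. The library kit kept strand, but the strand setting of the counting is not given in the sources used here. Genes with an exon overlapped from the opposite strand took 71.7% of all non-transgenic and 67.3% of all transgenic counts. Where exons of such a pair share bases, only strand tells their reads apart, and the setting used is not known. Of 7929 genes with more than 1 accession, 85.1% had no count in either library, against 58.9% of 17075 genes with a single one. All 7 members with 1 accession had counts, and both members with 2, Txnip and Ppara, had none. Whether the number of accessions led to those zeros was not tested.

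The sequences at the Txnip locus show why strand matters there. On the GRCm38 assembly, Gm15441 lies at chr3:96555765-96566801 on the minus strand and Txnip at chr3:96557957-96561883 on the plus strand. Exons of the counted Gm15441 transcript (4 exons, 1653 bases) share 603 bases, or 36.5% of its length, with those of the shorter Txnip transcript, and 327 of those bases are coding in Txnip. The first 60 coding bases of Txnip (chr3:96558236-96558295) lie wholly inside a Gm15441 exon. Both strands of that stretch are given from GENCODE release M21, each 5′ to 3′, and a read from it belongs to one gene or to the other by strand alone:
Txnip, plus strand: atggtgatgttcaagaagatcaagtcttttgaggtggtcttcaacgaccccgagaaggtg
Gm15441, minus strand: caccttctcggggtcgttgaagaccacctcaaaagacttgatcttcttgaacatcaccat

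**Figure D1:**
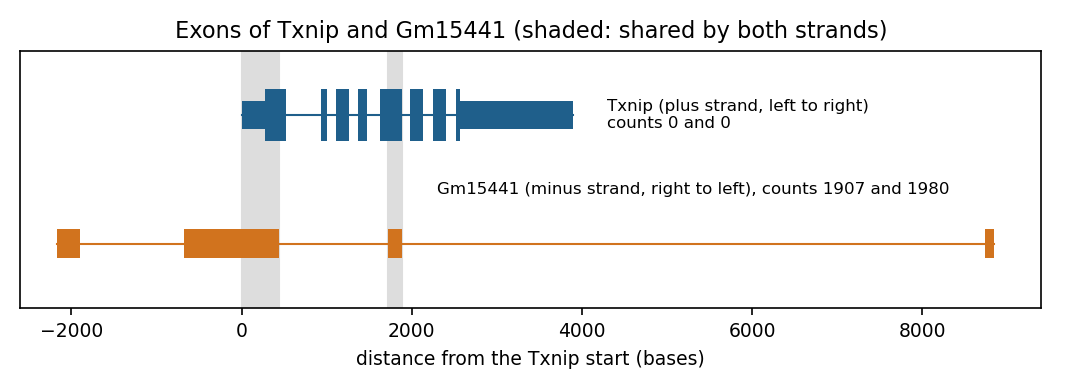
Exons of Txnip (upper, plus strand) and of Gm15441 (lower, minus strand) against the distance in bases from the Txnip start. Thick blocks are coding, and shading marks the 603 bases shared by exons of both strands. Txnip had no count in either library, whereas Gm15441 had 1907 and 1980.

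Acot1 and Acot2 raise a different difficulty, since they are near copies of each other on the same strand. Their coding sequences were identical at 95.6% of 1236 aligned bases, with 55 differences and an identical run of 273 bases. Of all stretches of 50 bases in the Acot1 transcript, 23.9% also occurred in Acot2, so part of their reads could not be assigned to either. A stretch of 120 bases of typical divergence holds 5 differences, in capitals (GRCm38, plus strand, Acot1 at chr12:84009538-84009657 and Acot2 at chr12:83988053-83988172):
Acot1: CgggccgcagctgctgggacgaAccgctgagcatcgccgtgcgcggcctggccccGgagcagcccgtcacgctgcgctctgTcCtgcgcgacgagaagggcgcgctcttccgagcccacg
Acot2: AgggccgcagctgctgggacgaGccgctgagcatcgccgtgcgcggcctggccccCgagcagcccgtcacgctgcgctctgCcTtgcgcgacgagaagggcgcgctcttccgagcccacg

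Pdk4 and Ucp3 were counted lower in the transgenic heart, Gm15441 differed little, and counts of the rest were too few to place. A gene was given a ratio when it had more than 3 counts in at least 1 library, which 6 of the 9 members did. A ratio is transgenic over non-transgenic after TMM scaling. Genes were called lower or higher if the ratio was 1.5-fold or more from 1 and its 95% counting interval did not reach 1. By that rule 2 of 6 members were lower (Pdk4 and Ucp3), none was higher, and 4 were neither. Of all 4236 genes with a ratio, 5.90% were lower and 3.42% higher by the same rule, so that 36.7% of the calls were higher. That share was 54.4% with DESeq2 size factors, 62.2% with total counts alone and 50.8% when ratios were centred within strand class. The ratios of all 6 members lay below 1, as did 48.3% of all ratios. Nothing is read from these shares, because the members were chosen on this comparison. In a pool of hearts, fewer cells of a type and less RNA per cell cannot be told apart.

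**Figure D2:**
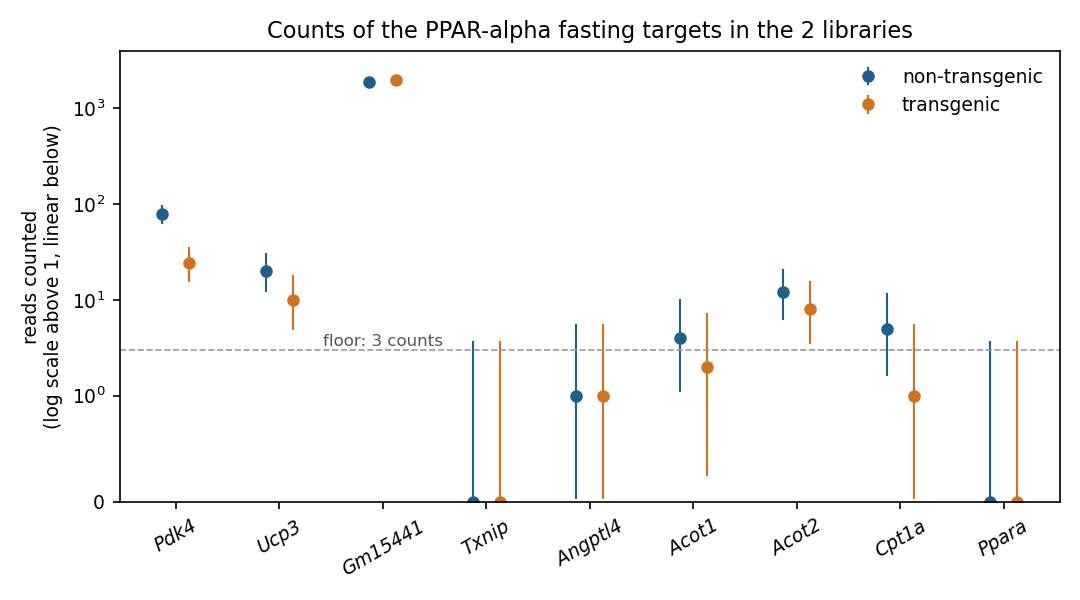
Reads counted for each of the 9 genes (vertical axis, log scale above 1 and linear below) in the non-transgenic (blue) and transgenic (orange) library, with exact 95% Poisson intervals. The counts are not scaled for library size. Pdk4 at 78 and 24 is the only member whose 2 intervals of unscaled counts stand apart, Gm15441 exceeds all others, and Txnip and Ppara are at 0. After TMM scaling, the ratio intervals of Ucp3 (0.166 to 0.890) and Gm15441 (0.775 to 0.880) also exclude 1.

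Pdk4, the kinase that inactivates pyruvate dehydrogenase, had 78 counts in the non-transgenic library (exact Poisson interval 61.7 to 97.3) and 24 in the transgenic library (15.4 to 35.7). The intervals do not overlap. After scaling, these were 484.9 and 118.6 CPM, which is 4.09-fold lower in the transgenic heart (counting interval 2.56 to 6.76). The gene lies at chr6:5483351-5496309 on the minus strand and has no annotated gene on the other strand within 5 kb. The strand setting of the counting is not known, and which strand its reads came from was not tested. Over genes without such a neighbour whose 2 counts add up to 30 or more, the median log2 ratio was 0.19, against -2.03 for Pdk4. Among 94 such isolated genes with a summed count of at least 60 Pdk4 had the lowest ratio, and among all 774 genes of that depth only 1 was lower. Pdk4 was chosen on this same comparison, so these ranks describe it and lend no support. At most 1.34% of the 50-base stretches of its transcript also occur in any single other gene.

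Ucp3 encodes a mitochondrial carrier of heart and skeletal muscle that rises when fatty acids are plentiful. Its count was 20 in the control library and 10 in the transgenic library, or 124.3 and 49.4 CPM after scaling. That is 2.52-fold lower in the transgenic heart, with a counting interval of 1.12 to 6.02 that comes close to 1. The call was lost when libraries were scaled by total counts alone, where the log2 ratio was -1.16 in place of -1.33. Ucp3 lies at chr7:100472990-100486432 on the plus strand, with a gene on the other strand within 5 kb but no exon overlap, and shares no stretch of 50 bases with another gene.

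Gm15441 was the most counted member by far, with 1907 counts in the control heart and 1980 in the transgenic heart. It ranked 8 among all genes in both and held 94.1% and 97.7% of all counts of the 9 genes. Per kilobase of transcript its scaled level was 7172 and 5921 CPM, against 139 and 34.0 for Pdk4. These are the reads assigned to Gm15441, and they may include reads of Txnip, since the strand used in counting is not known here. Other overlapping pairs went both ways, and those given here are examples, with no count made over all pairs. Map3k15 had 11983 and 12037 counts beside 121 and 186 for Pdha1, the pyruvate dehydrogenase subunit gene it overlaps. A930016O22Rik had 7272 and 6993 beside 342 and 396 for Ckm, and Mhrt had 1778 and 737 beside 27 and 20 for Myh7. In the other direction, Myl2 had 2405 and 3916 beside 1 and 0 for Ccdc63, and Acadvl had 132 and 200 beside 3 and 2 for Dvl2. The origin of the Gm15441 reads was not tested. The ratio of Gm15441 was 0.826 (counting interval 0.775 to 0.880), a difference beyond counting error but well under 1.5-fold. It was also close to what overlapping genes did in general. Their median ratio was 0.837 over 781 genes with at least 30 counts, and 249 of 513 overlapping genes with at least 60 counts had a lower ratio than Gm15441. With the median of its strand class taken off, its log2 ratio went from -0.28 to -0.02.

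Txnip, the gene opposite, had 0 counts in both libraries, so neither a level nor a ratio can be given for it. Its 2 accessions differ little: all 2795 bases of the shorter are also exon in the longer. A read from those bases matches both accessions. Of the genes related to Txnip, the arrestin-family gene Arrdc4, another target of glucose sensing, had 2 and 1 counts, and Arrdc3 had none. The thioredoxin genes Txn1 and Txn2 had 6 and 4 counts and 13 and 21 counts. Among 11 genes of that list, 2 had a ratio and neither was 1.5-fold apart beyond its interval. Over all genes with a ratio 5.90% were lower and 3.42% higher, so 2 genes without a call say nothing about the list.

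The 2 acyl-CoA thioesterases, which free fatty acids from coenzyme A, had few counts. Acot2, the mitochondrial enzyme, had 12 and 8 counts, a ratio of 0.530 (0.188 to 1.41). Acot1, the cytosolic enzyme, had 4 and 2, a ratio of 0.398 (0.0360 to 2.77). Both intervals include 1, and the shared sequence given above makes each count uncertain. Of the 12 related thioesterase genes in the list only Acot13 had a ratio, with 89 and 176 counts, 1.57-fold higher (1.21 to 2.05). It belongs to another structural class of thioesterase, and its ratio lies on the other side of 1 from those of Acot1 and Acot2.

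Cpt1a, the liver form of the enzyme that admits long-chain fatty acids to mitochondria, had 5 counts in the control heart and 1 in the transgenic heart. The ratio of 0.159 has a counting interval from 0.00336 to 1.42, so no difference was detectable at this depth. Its muscle counterpart Cpt1b, the main form in heart, had 0 and 2 counts. Angptl4, a secreted inhibitor of lipoprotein lipase, had 1 count in each library, and no ratio was given.

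Ppara, the receptor itself, had 0 counts in both libraries on both of its accessions. These share 2436 bases, which is 96.7% of the shorter (2519 bases) but 71.4% of the longer (3413 bases). The related receptors were hardly counted either, with 1 and 4 for Ppard and none for Pparg. The partner receptor Rxra had none, Rxrg had 1 and 2, and the coactivator Ppargc1a had none. Of 23 receptors, partners and coregulators, 13 had no count, as did 16805 of all 25004 genes. A ratio was given for 7, and none of the 7 was 1.5-fold apart beyond its interval. Over all genes with a ratio, 5.90% were lower and 3.42% higher. The muscle coactivator-related gene Perm1 had 46 and 59 counts, a ratio of 1.02 (0.682 to 1.53). Esrra, a receptor that drives mitochondrial genes, had 12 and 21 counts and a ratio of 1.39 (0.654 to 3.10). These tables do not show whether the level of the receptor differed between the libraries.

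The promoters of the 2 genes that were counted lower differ in the receptor's motif. Windows from 250 bases before to 50 bases after the annotated start were taken from RefSeq (GRCm38.p6), which matched 7 of the 9 members, and searched on both strands for the exact half-site AGGTCA and for the direct repeat DR1, a pair of half-sites with 1 base between them and up to 2 mismatches. Ucp3 had a DR1 match with 2 mismatches at bases -51 to -39 from the start (base 0), whose downstream repeat is an exact AGGTCA, and a lone AGGTCA at -149 to -144. Pdk4 had neither. Matches are in capitals (Pdk4 at chr6:5496229-5496528, minus strand, and Ucp3 at chr7:100472741-100473040, plus strand):
Pdk4 promoter: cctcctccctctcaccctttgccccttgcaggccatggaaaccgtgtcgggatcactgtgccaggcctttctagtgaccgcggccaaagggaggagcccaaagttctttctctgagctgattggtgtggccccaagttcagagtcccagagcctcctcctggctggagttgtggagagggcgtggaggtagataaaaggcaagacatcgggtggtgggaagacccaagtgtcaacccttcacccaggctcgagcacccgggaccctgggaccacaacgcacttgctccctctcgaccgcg
Ucp3 promoter: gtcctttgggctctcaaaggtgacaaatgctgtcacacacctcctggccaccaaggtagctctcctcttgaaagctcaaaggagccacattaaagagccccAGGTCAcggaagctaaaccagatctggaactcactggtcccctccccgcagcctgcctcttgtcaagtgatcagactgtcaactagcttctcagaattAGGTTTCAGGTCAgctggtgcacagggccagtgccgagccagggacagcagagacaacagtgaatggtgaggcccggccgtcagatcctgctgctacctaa

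Of 32851 promoters of the same length, 3.86% held a DR1 match and 16.3% an AGGTCA. Cpt1a had an AGGTCA on the other strand at -94 to -89, and the FoxO-type motif GTAAACA, present in 3.65% of promoters, occurred in Txnip at -121 to -115. The glucose-response E-box CACGTG (7.15% of promoters) occurred in none of the 7. Among 40 other PPAR-alpha targets with a promoter, 6 held a DR1 match. They include Slc25a20, Plin2 and Etfa, whose ratios of 1.83, 1.82 and 1.27 lie on the other side of 1 from Ucp3, each with an interval that includes 1. Sites outside these windows were not searched.

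Most other targets of the receptor with a ratio were not called in either direction. Of 50 further PPAR-alpha targets in heart and liver, 19 had a ratio, of which 2 were lower, none was higher and 17 were neither. Among the lower genes was the thiolase gene Acaa2, with 156 and 128 counts, 1.53-fold lower (1.21 to 1.95). Acaa2 was no longer called with total counts alone (log2 ratio -0.45) or DESeq2 size factors (-0.51), against -0.62 here. The list's median log2 ratio was 0.10, beside 0.05 over all genes. The 2 lower of 19 stand beside the background of 5.90% given above.

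**Figure D3:**
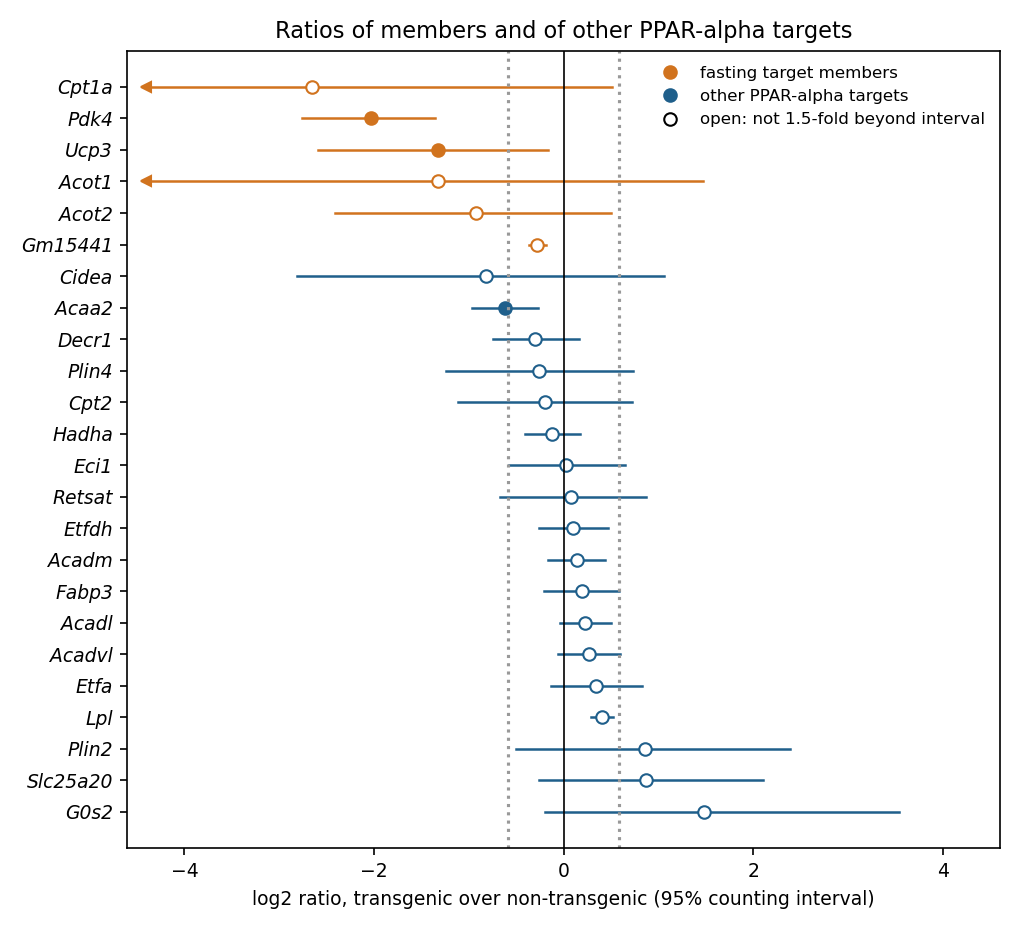
Log2 ratio of transgenic over non-transgenic (horizontal axis) with the 95% counting interval for the 6 members with a ratio (orange) and for 18 other PPAR-alpha targets with counts in both libraries (blue). Filled points are 1.5-fold apart beyond the interval; dotted lines mark 1.5-fold and arrows mark intervals that run past the axis. Pdk4, Ucp3 and Acaa2 are filled, and Gm15441 lies just below 0.

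Lpl, the lipase that Angptl4 inhibits, had 976 and 1624 counts. Its ratio of 1.32 (1.22 to 1.43) was under 1.5-fold. The dehydrogenase genes of fat oxidation had 160 and 221 counts for Acadm (ratio interval 0.892 to 1.35), 197 and 291 for Acadl (0.977 to 1.41) and 132 and 200 for Acadvl (0.962 to 1.51). Each of these intervals includes 1, and the log2 ratio of Acadm went from 0.14 to -0.05 when centred within strand class. The fatty acid binding protein gene Fabp3, which overlaps genes on the other strand, had 93 and 133 counts, a ratio of 1.14 with an interval that includes 1. The fatty acid transporter gene Cd36, the activating enzyme gene Acsl1 and the lipid droplet gene Plin5 had no count in either library, as did 18 of the 50 targets in all, and 14 of those 18 had more than 1 accession.

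Of 13 genes for the pyruvate dehydrogenase complex, its kinases and phosphatases and the pyruvate carrier, 7 had a ratio, all 7 above 1, and 2 were called higher. Over all genes 3.42% were called higher, and 48.3% of ratios lay below 1. Dlat, the acetyltransferase core of the complex, had 37 and 100 counts, 2.15-fold higher (1.46 to 3.22), with no gene on the other strand within 5 kb. Mpc2, a subunit of the mitochondrial pyruvate carrier, had 38 and 73, 1.53-fold higher (1.02 to 2.32), a call that was lost with upper-quartile factors and when ratios were centred within strand class. The ratio of Pdhb, from 62 and 95 counts, was 1.22 (0.875 to 1.71). Pdha1, which overlaps Map3k15, had 121 and 186 and a ratio of 1.22 (0.967 to 1.55). The other kinases were hardly counted: Pdk1 had none, Pdk2 had 3 and 0, and Pdk3 had 1 and 0. Pdk4 is thus the only kinase of the family for which these tables give a ratio.

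**Figure D4:**
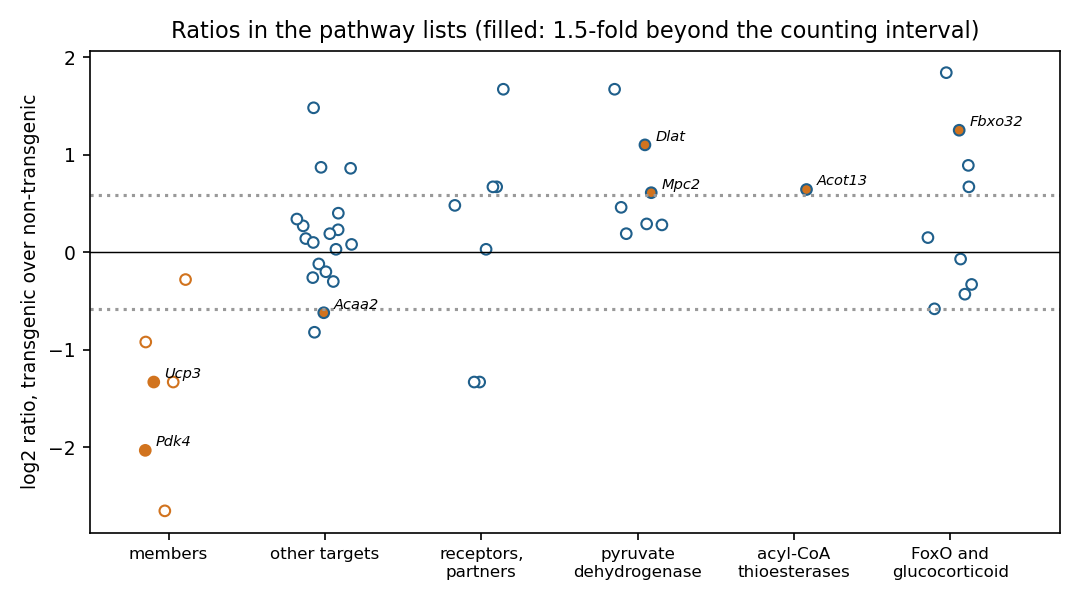
Log2 ratio (vertical axis) of each gene with counts in both libraries and a ratio, by list: the members, other PPAR-alpha targets, receptors and partners, pyruvate dehydrogenase genes, acyl-CoA thioesterases, and genes responsive to FoxO or glucocorticoids. Filled points are 1.5-fold apart beyond the counting interval. The members lie below 0. In the other lists Acaa2 is filled below 0 and Dlat, Mpc2, Acot13 and Fbxo32 above it.

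Genes listed as responsive to fasting, FoxO factors or glucocorticoids, with Foxo1 and Foxo3 themselves among them, were mostly uncalled where they had a ratio. Of 27 such genes 9 had a ratio, 1 was higher, none was lower and 8 were neither, beside 3.42% higher and 5.90% lower over all genes. The ubiquitin ligase gene Fbxo32, which overlaps Gm15943, had 10 and 30 counts, 2.39-fold higher (1.13 to 5.47). Trim63 had 25 and 30 counts, a ratio of 0.954 (0.542 to 1.69). Klf9, a glucocorticoid-induced factor, had 38 and 32, a ratio of 0.670 with an interval that includes 1. When ratios were centred within strand class its log2 ratio went from -0.58 to -0.76 and it was called lower. Fkbp5, another glucocorticoid-induced gene, had 2 and 1 counts, and Per1 and Zbtb16 had none.

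Markers of other tissues in which these genes respond to fasting were counted unevenly. All 5 hepatocyte markers had no count in either library. Of 10 adipocyte markers 6 had no count, among them Plin1, Cfd and Lep, and Adipoq had 0 and 1. Fabp4, which capillary cells also express, had 154 and 188, a ratio of 0.971 (0.780 to 1.21). Of 5 brown fat markers, Ucp1 and Ppargc1a had no count, Elovl3 had 0 and 1, and Cidea had 7 and 5. Cox7a1, a cytochrome oxidase subunit gene that heart also expresses, had 83 and 158 counts, 1.51-fold higher with a lower bound of 1.15, a call that was lost with upper-quartile factors and with centring within strand class. Of the 8 skeletal muscle markers, 4 had no count, and Ckm, which heart expresses too, had 342 and 396. Ckm overlaps A930016O22Rik on the other strand, which had 7272 and 6993. Summed over 11 genes and before TMM scaling, heart muscle markers were 26926 and 40482 CPM, and after TMM scaling 1 of the 6 with a ratio (Tnnc1) was called higher. With total counts alone 3 of the 6 were called higher, and 2 with DESeq2 size factors or with centring. Higher calls over all 4236 genes with a ratio changed too. They were 145 after TMM scaling, 244 with total counts alone, 218 with DESeq2 size factors and 169 with centring. Fibroblast markers, 7 genes, summed to 293 and 199 CPM. Col3a1 was called lower after TMM scaling (log2 ratio -1.05), but not with total counts alone (-0.88) or DESeq2 size factors (-0.94). Endothelial markers, 7 genes, summed to 405 and 367 CPM. None of the 3 with a ratio was called, beside 5.90% lower and 3.42% higher over all genes. The part of these differences in the results for Pdk4 and Ucp3 was not tested.

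By distance in log2 ratio over the 2 libraries, among genes with at least 60 counts, the nearest were Spg11 (69 and 23 counts), Rab11b (58 and 16), A930037H05Rik (58 and 20), Mhrt (1778 and 737) and Clcn2 (45 and 19). Each of these 5 overlaps an exon on the other strand, which Pdk4 does not. Among the nearest to Gm15441 were Zdhhc5 (133 and 138), Surf4 (73 and 76), Apoa2 (113 and 117) and Nup214 (70 and 73), of which 3 overlap such an exon and Apoa2 does not. With 1 library per group, likeness here means a similar ratio and nothing more.

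**Figure D5:**
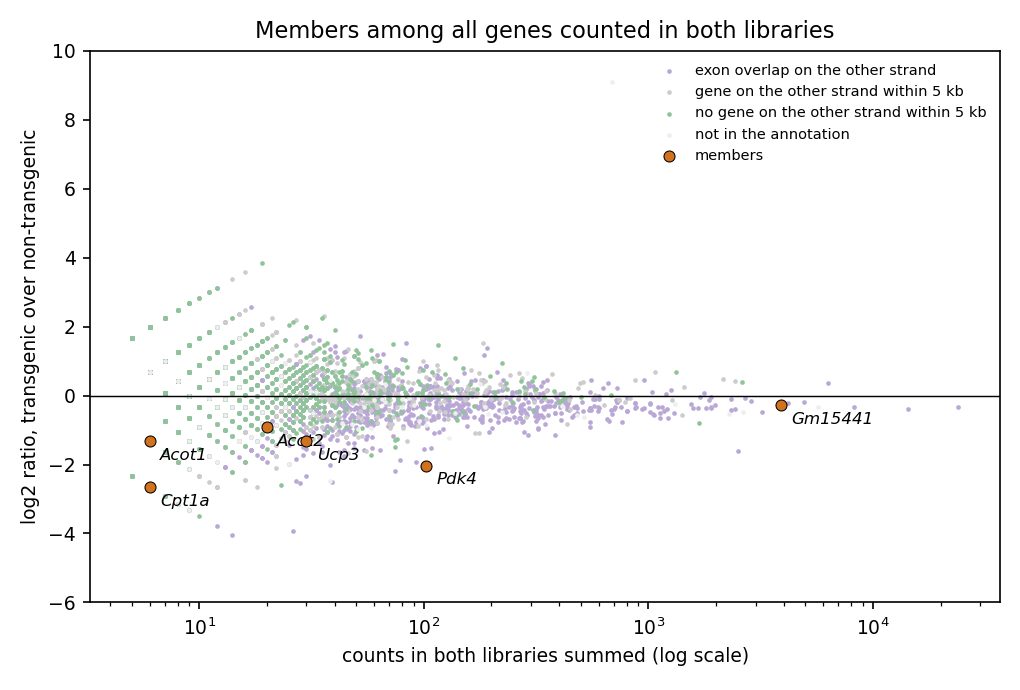
Log2 ratio of transgenic over non-transgenic (vertical axis) against counts in both libraries summed (log scale) for the 4053 genes with a ratio and counts in both libraries, coloured by what the annotation has on the other strand. Pdk4 lies below nearly all genes of its depth, whereas Gm15441 lies among the other overlapping genes. Both were chosen on this same comparison.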

How the data were processed

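Each deposited file holds the unnormalized read counts of 1 library by RefSeq transcript. STAR, HTSeq and mm10 are listed, without versions, in the submitters' processing notes, while the annotation used for counting is not given in the sources used here, nor is the strand setting. Per the labels' protocols, the kit selected poly-A RNA and kept strand. Of 41449 accessions, 41252 were named from RefSeq and 99 from GENCODE M21, and counts were summed over 25004 genes; 98 stayed unnamed (1.81% and 1.66% of counts). No sample column was left unused. Coordinates, exons and transcript lengths are GENCODE M21 (GRCm38, also called mm10).

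No count model was fitted, since neither group has a replicate. Ratios used edgeR 4.0.16 TMM factors (0.943 and 1.06) in R 4.3.3 and exact 95% Clopper-Pearson intervals of the share of a gene's counts (scipy 1.17.1). A count of 0 took a floor of 3 counts. The interval code was tested on simulated data. The alternatives comprised total counts alone, size factors from DESeq2 1.42.0, upper-quartile factors, the most counted accession, other filters and floors, 2-fold calls and, added after seeing the data, centring within strand class (exon overlap of at least 1 bp, a gene within 5 kb, or neither).

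The members and gene lists were chosen with earlier results of these data known. The genes named are the 9 members, up to 4 called genes of each list (or its 2 most counted), genes opposite a member, and the 5 genes nearest in ratio to Pdk4 and to Gm15441. Further genes at 0 or with known roles were named after their values were seen. Of the genes this rule names, 2 are not reported here.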

Additional observations from a re-analysis of the deposited data

How the results depend on the processing

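Pdk4 stayed called lower in every alternative run, with log2 ratios from -2.22 to -1.86, and Ucp3 ranged from -1.39 to -1.16. Gm15441 ranged from -0.31 to -0.02 and moved outside its counting interval to -0.17 with DESeq2 size factors, -0.11 with total counts alone and -0.02 when centred within strand class. Acot1, Acot2 and Cpt1a were below 0 and uncalled in each alternative that gave them a value. The 2 lower members became 1 with total counts alone, and none was higher in any alternative. The 2 other targets called lower became 1 with total counts alone, with DESeq2 size factors, with 2-fold calls and with a filter of 20 counts over both libraries. Over all genes, 250 were lower and 145 higher. Lower calls were 148 with total counts alone, 157 at 2-fold and 164 when centred within strand class, and higher calls were 244 with total counts alone and 218 with DESeq2 size factors. Higher calls were 36.7% of all calls, 54.4% with DESeq2 size factors, 62.2% with total counts alone and 50.8% when centred within strand class; the first 2 shift the median log2 ratio by 0.11 and 0.17. No paired analysis was possible because each group has 1 library, and for the same reason no replicate could be left out.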
